A study of Danio rerio with 9 samples.

Results

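The cytosolic ribosomal protein genes were followed in 9 zebrafish melanomas, 5 with a mutant of the kinase CDK13 (R860Q) and 4 with EGFP. The members were every row whose symbol has, in lower case, the form of a large subunit (rpl, rplp) or small subunit (rps) gene. The S6 kinases (rps6k) and rpl7l1 were left out. This gave 79 of the 30649 rows, 45 of the large and 34 of the small subunit. Among them, rps19bp1 is by its name a binding protein of rps19 and not a ribosomal protein, and it was kept because the rule takes it.

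Fish of both groups had the same background genotype. They were p53-/-, carried BRAFV600E under the promoter of the melanocyte gene mitfa, and were Na-/-, the nacre mutant that has no mitfa of its own. Embryos at the 1-cell stage received 20 ng per µL of MiniCoopR DNA with RNA for the Tol2 transposase, and 20 fish were raised to a tank until raised lesions could be dissected. MiniCoopR brings back mitfa together with the gene of interest, here CDK13 R860Q in 5 tumours (R157 to R161) or EGFP in 4 (R162 to R165), so that the pigment cells that return carry it. Wild-type CDK13 was not analysed here, so the comparison is of R860Q with EGFP, in fish that all lack p53. Nothing in the labels states that the tumours came from separate fish, so the error behind each p-value is that among these 9 samples.

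The cytosolic ribosome is built from a small subunit, which reads the mRNA, and a large subunit, which forms the peptide bond and ends in the P stalk (rplp0, rplp1, rplp2) that calls in elongation factors. Ribosomal protein mRNAs begin with a 5′ TOP tract, through which their translation follows mTOR signalling, and the proteins are made in matched amounts for assembly with ribosomal RNA. Free RPL5 and RPL11 are known in mammals to bind MDM2 and so stabilise p53, an arm that fish without p53 cannot use, and zebrafish heterozygous for several ribosomal protein genes are known to develop nerve sheath tumours.

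Libraries were made from total RNA after removal of ribosomal RNA, and the deposited values were raw read counts, between 5518472 and 15120176 in a tumour. The human CDK13 row stood at 16.2 to 751 CPM in the 5 R860Q tumours and at 0 to 0.489 CPM in the EGFP tumours (CPM, counts per 1000000 after TMM scaling of the library). The melanocyte list (12 of 13 genes present in the files, 0 of them at 0 reads) summed to 2752 to 15145 CPM in R860Q and 5825 to 12125 CPM in EGFP tumours. In bulk tumours, fewer cells of a type and less RNA per cell cannot be told apart. EGFP R162 stood apart from the others: it had the lowest scaling factor (0.650, others up to 1.25) and the largest share of reads on noncoding RNA rows (39.8%, range over tumours 22.3% to 39.8%). The main counts over the set, and the fold changes of its genes that turn with this tumour, are given with and without it.

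Ribosomal protein genes moved between tumours as a block, and the EGFP tumours held both ends of the range. Their reads made up 9.40%, 9.86%, 7.84%, 9.45% and 9.44% of all counts in R860Q R157 to R161, and 15.2%, 6.47%, 8.22% and 4.34% in EGFP R162 to R165. The R860Q tumours lay close together, within 1.26-fold of each other, while EGFP R162 was 3.50-fold above EGFP R165. EGFP R162 was above the R860Q range, R164 within it, and R163 and R165 below it. The mean share was 9.20% ± 0.783 (SD, n = 5) in R860Q and 8.55% ± 4.70 (SD, n = 4) in EGFP tumours, a ratio of 1.08 that is smaller than the spread between EGFP tumours. Without EGFP R162 the EGFP mean was 6.34% ± 1.95 (SD, n = 3) and the ratio 1.45.

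The share depends on what else is counted, because 7SL RNA alone took 16.3% to 28.2% of the reads of a tumour. With noncoding RNA rows left out of the total, the share was 13.1% ± 1.06 (SD, n = 5) in R860Q and 12.7% ± 8.55 (SD, n = 4) in EGFP tumours, from 5.86% in EGFP R165 to 25.2% in EGFP R162. The mitochondrial ribosomal protein genes, which serve the separate ribosome of that organelle, took only 0.134% to 0.216% of the counts. Within the set, rplp0, the base of the P stalk, gave the most reads (514324, or 7.54% of the reads of the set). It was followed by rps2 at the mRNA entry site (3.51%), rps3a (2.61%), the S6 kinase substrate rps6 (2.37%) and rpl3 near the catalytic centre (2.30%). The row RPL41, written in capitals and so outside the rule, had more reads than rplp0 (586439). These counts were not divided by gene length, so they rank reads and not levels of the genes.

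**Figure D1:**
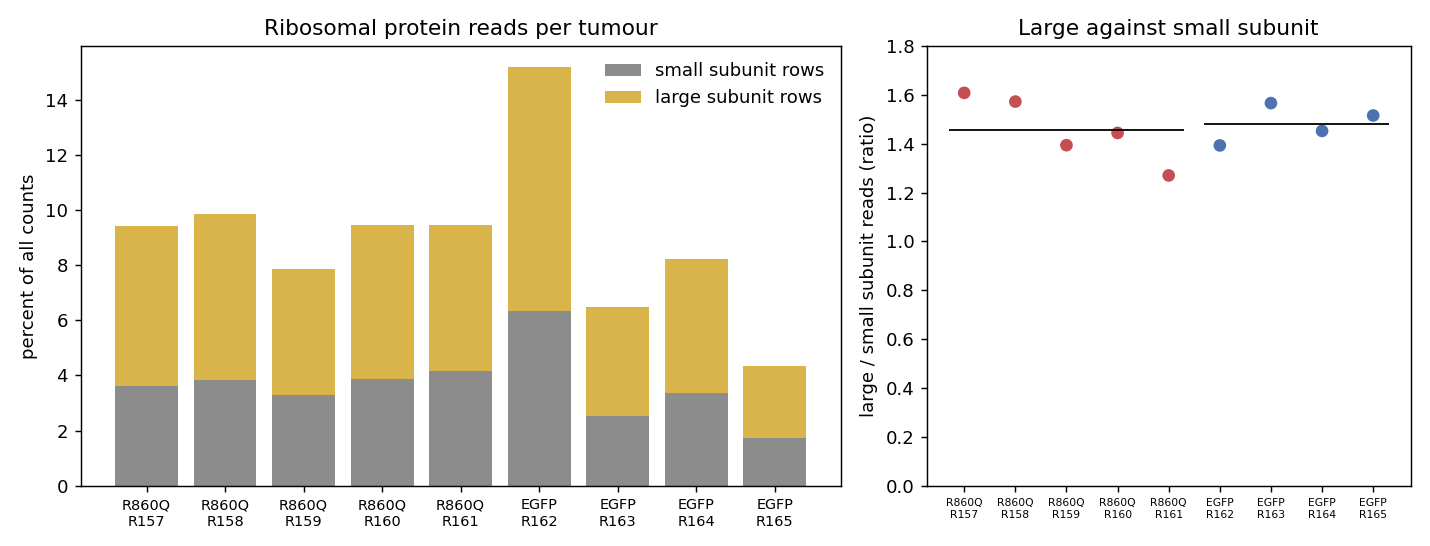
Left, ribosomal protein reads as a percent of all counts in each of the 9 tumours (bars, split into small and large subunit rows). Right, the ratio of large to small subunit reads in each tumour (points, lines at the group means): the share runs from 4.34% to 15.2% in EGFP tumours and from 7.84% to 9.86% in R860Q tumours, and the ratio from 1.27 to 1.61.

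After TMM scaling EGFP R162 and R165 were again the highest and the lowest tumour, while EGFP R164 now lay below every R860Q tumour. Of the 79 rows, 78 had enough reads to be tested, and rps8b (43 reads in all tumours together) had too few. The median over these 78 genes of the log2 deviation from the gene's own median was 1.43 in EGFP R162, -0.48 in R163, -0.34 in R164 and -1.22 in R165, against -0.01 to 0.22 in the R860Q tumours. EGFP R162 was the highest of the 9 tumours for 68 of the 78 genes (17.9% of all genes tested), and EGFP R165 the lowest for 68 (12% of all genes tested). The P stalk base shows the pattern: rplp0 stood at 6836, 6413, 4989, 8670 and 6875 CPM in R860Q R157 to R161 and at 22918, 4092, 5611 and 2004 CPM in EGFP R162 to R165.

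A gene's SD of log2 CPM over the 9 tumours had a median of 0.793 among the ribosomal protein genes (0.565 over all genes tested). It fell to 0.339 once each tumour's own median over the set was taken away, so most of the spread was shared by the set. The largest SDs belonged to rpl22l1 (1.38), a relative of rpl22, to the P stalk gene rplp2 (1.31), and to rps26l (1.17) and rps26 (1.16), which code for a protein at the mRNA exit. The smallest belonged to rps19bp1 (0.260), then to rpl6 (0.384) and to rpl4 (0.445), whose protein lines the peptide exit tunnel. The gene that is no ribosomal protein thus had the smallest spread: rps19bp1 stood at 17.0, 11.1, 18.1, 13.7 and 16.8 CPM in R860Q R157 to R161 and at 14.4, 18.9, 16.6 and 12.2 CPM in EGFP R162 to R165.

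**Figure D2:**
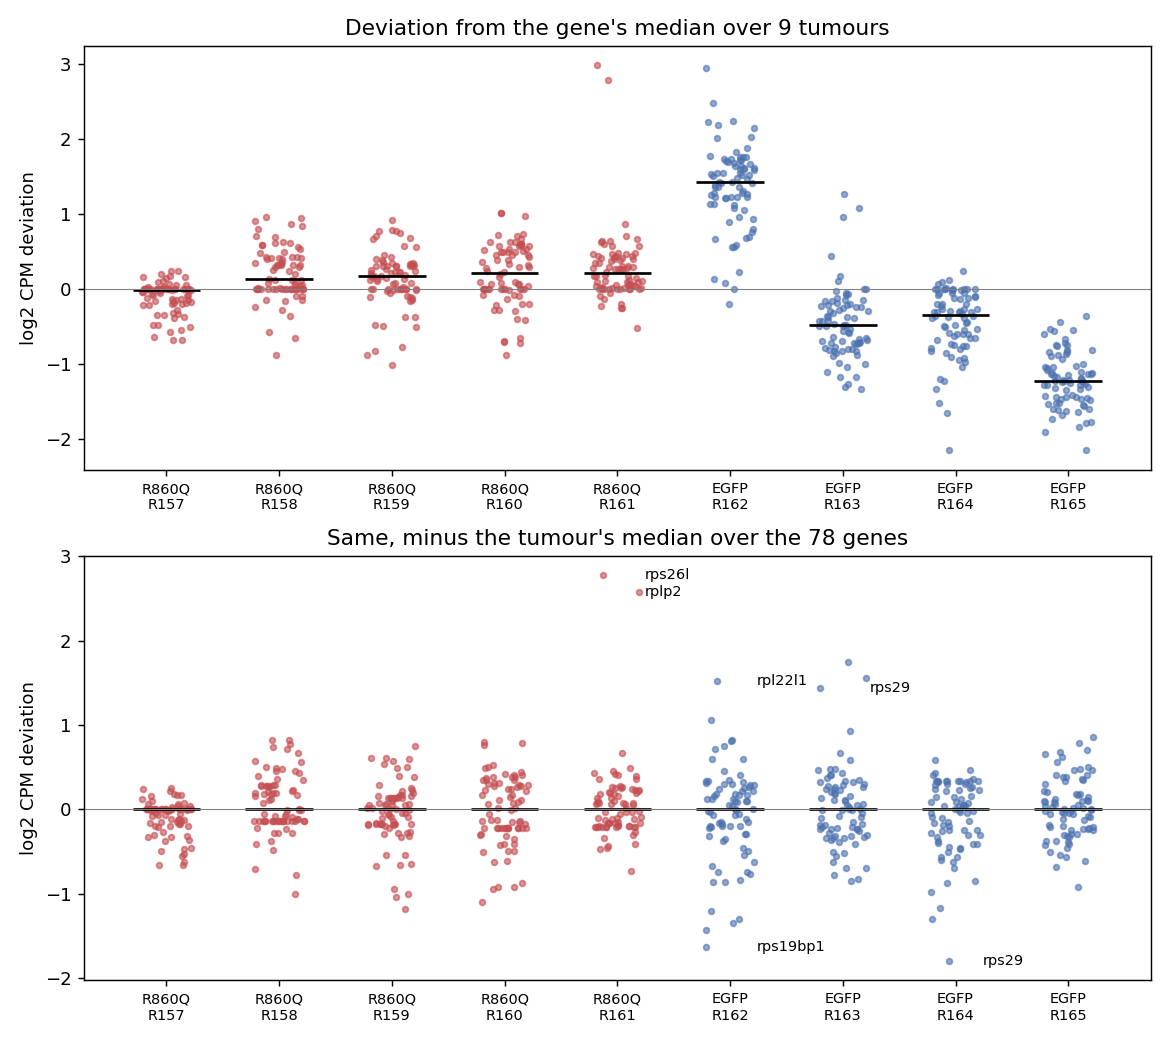
Each point is 1 of the 78 tested ribosomal protein genes in 1 tumour, with black lines at the medians: above, its log2 CPM minus its median over the 9 tumours, and below, the same after subtracting the tumour's median over the set. The medians above run from -1.22 in EGFP R165 to 1.43 in EGFP R162, and below rps26l and rplp2 stand apart in R860Q R161 (2.77 and 2.58).

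Markers of other cells also differed between tumours, and their part in these values was not tested. Skeletal muscle genes (21 of 21 present, tnnt3a at 0) summed to 26.9 to 5217 CPM in R860Q and 10.5 to 1323 CPM in EGFP tumours, with the EGFP maximum in R162. T and NK lymphocyte genes (12 of 14 present, 0 at 0 reads, the list also holding the RNA polymerase I gene cd3eap) summed to 29.8 to 54.4 CPM in R860Q and to 438, 30.0, 313 and 431 CPM in EGFP R162 to R165, so that both ends of the ribosomal protein range were high in it. Keratinocyte genes (10 of 11 present, 0 at 0 reads) ran the other way, from 152 CPM in EGFP R162 to 2925 CPM in EGFP R165, and from 370 to 1069 CPM in R860Q tumours. Macrophage genes (15 of 15 present) summed to 621 to 1584 CPM in R860Q and 751 to 2958 CPM in EGFP tumours, and B lymphocyte genes (6 of 8) to 2.28 to 5.74 and 4.29 to 20.3 CPM, both with their maximum in EGFP R165. Erythrocyte genes (7 of 9) summed to 189 to 2691 CPM in R860Q tumours and ran from 149.8 CPM in EGFP R165 to 3325 CPM in EGFP R162. None of the genes of these 3 lists was at 0 reads in every tumour. Within the R860Q group, R158, R159 and R160 held 556, 5217 and 3670 CPM of muscle genes beside ribosomal protein shares of 9.86%, 7.84% and 9.45%, and R157 and R161 held 46.3 and 26.9 CPM beside 9.40% and 9.44%.

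R860Q and EGFP tumours were then compared gene by gene, which addresses whether the CDK13 mutant goes with another level of the ribosomal protein mRNAs. None of the genes passed. With edgeR's quasi-likelihood test and Benjamini-Hochberg adjustment over the 15169 genes tested, 0 of the 78 were called (0% of all genes tested), and 0 had an unadjusted p under 0.05 (6.14% of all genes tested). DESeq2 called 0 of them (0.448% of all genes tested) and limma voom with sample weights 0 (0% of all genes tested). For some of the 78, among them rpl5a, rplp2l, rps21, rps26 and rps27.1, DESeq2 gave no adjusted p, so it could not call these. The groups overlapped in CPM for each of the 78 (1.43% of all genes tested did not overlap).

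In edgeR 33 genes lay on the higher side in R860Q and 45 on the lower one, where 47.2% of all genes tested lay on the higher side. The median log2 fold change was -0.02 (all genes tested -0.03), -0.07 for the 45 large subunit genes and -0.02 for the 33 of the small subunit, from -0.87 to 0.96, with a median SE of 0.520. The side depended on the method: limma voom, a linear fit on log2 CPM with sample weights, put 72 of the 78 on the higher side (49.9% of all genes tested), and the median was 0.30.

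On the higher side the smallest p-values belonged to rpl4 (0.47 ± 0.36 SE, edgeR adjusted p = 0.938), rps26l (0.96 ± 0.78), rps16 of the small subunit head (0.53 ± 0.47) and rplp2 (0.95 ± 0.85). On the lower side they belonged to rpl22l1 (-0.87 ± 0.87 SE), rps3a of the small subunit platform (-0.67 ± 0.68), rps7, whose product binds MDM2 in mammals (-0.38 ± 0.47), and rps21 (-0.54 ± 0.68). The row rps21 had only 353 reads in all tumours together. Each of these 8 differences was smaller than 2 SE, and no adjusted p in the set was below 0.938. Without EGFP R162 the 4 on the lower side turned to 1.24 (rpl22l1), 0.63 (rps3a), 0.38 (rps7) and 0.89 (rps21).

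A single tumour set some of these values, as for rps3a, but not that of rpl4. Its log2 fold change stayed between 0.32 and 0.58 whichever single tumour was left out. For rps3a, R860Q R157 to R161 stood at 1862, 2046, 1153, 3106 and 2728 CPM and EGFP R162 to R165 at 9638, 1118, 2184 and 913 CPM. EGFP R162 was more than 4-fold above every other EGFP tumour, and the remaining 3 lay within or just below the R860Q range. For rpl4 the R860Q tumours stood at 1197, 2361, 2491, 1447 and 1499 CPM and the EGFP tumours at 1586, 1231, 1435 and 958 CPM. Here EGFP R162 was not far from its group, and the 2 highest values were R860Q R158 and R159.

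Leaving out EGFP R162 changed the picture for nearly the whole set. Without it 77 of the 78 genes had a positive log2 fold change (49.7% of all genes tested), the exception being rps19bp1 (-0.05), and the median log2 fold change was 0.80 (all genes tested -0.00). An unadjusted p under 0.05 with the higher level in R860Q was reached by 43 of them (3.85% of all genes tested), and 37 had R860Q values all above the 3 remaining EGFP tumours (2.47% of all genes tested). No gene passed the adjustment: the smallest adjusted p was 0.402, for rps20 (1.41 ± 0.29 SE), with rps26 at 1.62 ± 0.37, rpl11 at 1.29 ± 0.32, rpl38 at 1.24 ± 0.31 and rpl5a at 1.16 ± 0.29, the latter 4 each at an edgeR adjusted p of 0.463. EGFP R162 was picked out by this very measure, so these values describe the other 8 tumours and are no independent comparison. Leaving out EGFP R165 instead, at the other end, put 11 of the 78 on the higher side and the median at -0.30.

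For rps20, a protein of the small subunit head, R860Q R157 to R161 stood at 1142, 1278, 1405, 1205 and 1449 CPM and EGFP R162 to R165 at 5479, 503, 616 and 337 CPM. The R860Q tumours were nearly level, EGFP R162 was far above them and the other 3 EGFP tumours were all below them. For rpl11, whose free protein binds MDM2 in mammals, the R860Q tumours stood at 1585, 1726, 1999, 2450 and 1329 CPM and the EGFP tumours at 5405, 905, 822 and 509 CPM. As for rps20, EGFP R162 was above all R860Q tumours and the other 3 EGFP tumours were below them.

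**Figure D3:**
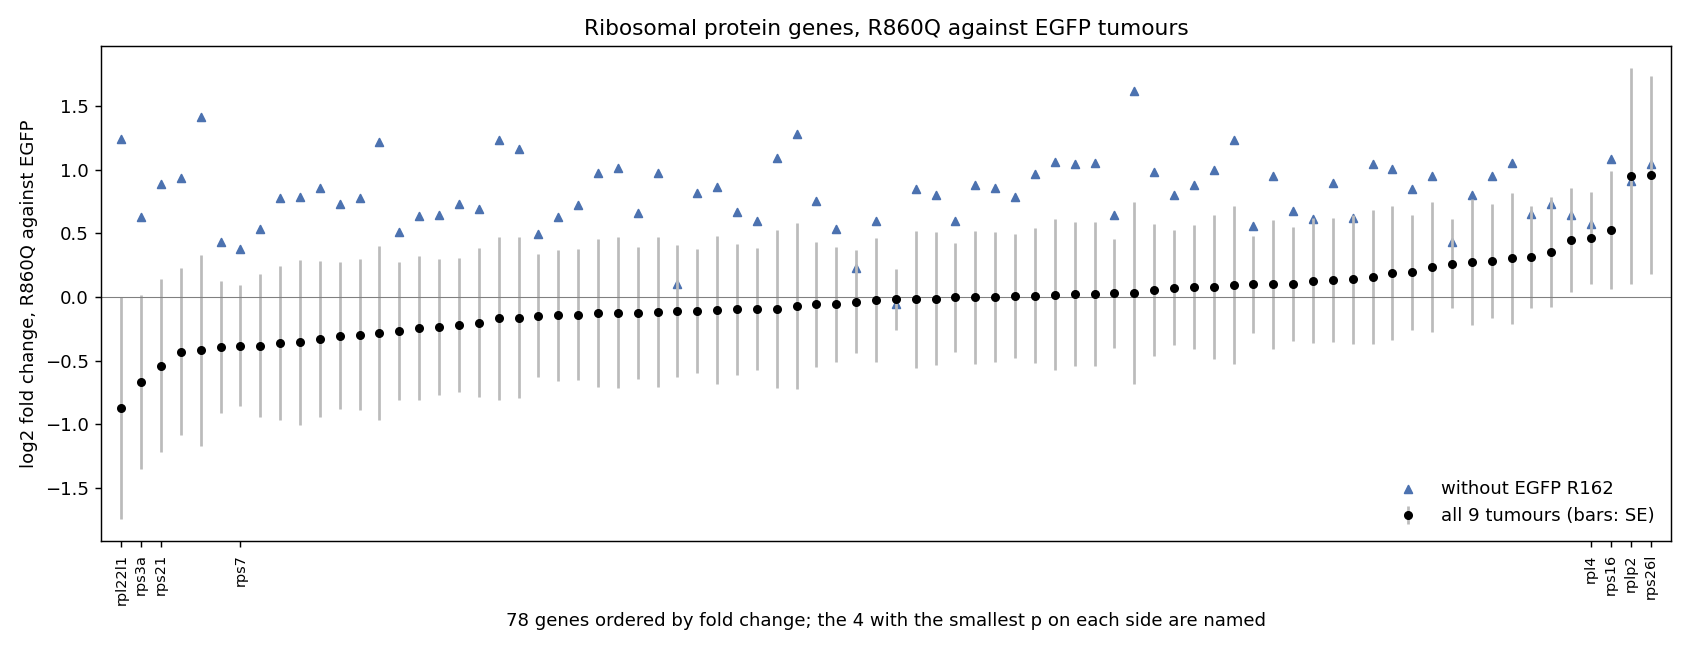
Log2 fold change of R860Q against EGFP tumours for the 78 tested ribosomal protein genes, ordered by value, with the genes of smallest p on each side named. Black points with bars (SE) are the edgeR fit with all 9 tumours, from -0.87 to 0.96, and blue triangles the fit without EGFP R162, with a median of 0.80.

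Whether any ribosomal protein gene moved against the others was asked with the library size set to the reads of the set itself. Here too edgeR called 0 of 78 (0% of all genes tested), 0 had an unadjusted p under 0.05 (8.27% of all genes tested) and the smallest adjusted p was 0.690. On this scale 41 genes lay on the higher side (11.3% of all genes tested) and 37 on the lower one, with a median of 0.01. The range was from -0.54 (rps19bp1) to 0.54 (rps26l), while the median of all genes tested was -0.57. The scale holds the total of the set equal in every tumour, so the near-even split and the small median are largely set by it. The values of all genes tested shift with that total and are no baseline for the set here. Only the spread of the genes around their own total can be read from this fit. Leaving out EGFP R162 lowered the smallest adjusted p on this scale to 0.0811, still with 0 ribosomal protein genes called. The smallest adjusted p was 0.701 or more when any other single tumour was left out. In limma voom with all tumours kept it was 0.205, also with 0 called.

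The proportion of large to small subunit rows varied less between tumours than their share of all reads. The ratio of large to small subunit reads was 1.61, 1.57, 1.39, 1.44 and 1.27 in R860Q R157 to R161 and 1.39, 1.57, 1.45 and 1.52 in EGFP R162 to R165. The means were 1.46 ± 0.137 (SD, n = 5) and 1.48 ± 0.0753 (SD, n = 4), and the groups overlapped. EGFP R162 and R165, 3.50-fold apart in the share of all reads, were at 1.39 and 1.52 in this ratio. It leaves out 8 other ribosomal protein rows that lie outside the rule. Among them is RPL41, at 5299 to 14853 CPM in R860Q and 2250 to 19849 CPM in EGFP tumours. The ratio with these rows was not computed, so the order and closeness of the group means hold only for the rows of the rule.

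The lowest ratio, 1.27 in R860Q R161, moved with few rows. Without rplp2 and rps26l the ratio there was 1.39, still the lowest but close to EGFP R162 (1.404), and the group means were 1.5004 ± 0.109 (SD, n = 5) and 1.52 ± 0.0979 (SD, n = 4). Without rplp0, the row of the set with the most reads, the means were 1.28 ± 0.117 and 1.29 ± 0.110.

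A row of each subunit, rplp2 and rps26l, departed from the block together. For rplp2, R860Q R157 to R161 stood at 167, 126, 286, 231 and 1601 CPM and EGFP R162 to R165 at 231, 556, 73.6 and 138 CPM. For rps26l they stood at 645.5, 609, 798, 611 and 5122 CPM and at 954, 1364, 627 and 262 CPM. In both genes R860Q R161 was far above all other tumours and EGFP R163 came next. Relative to the tumour's median over the set they were raised by 2.58 (rplp2) and 2.77 (rps26l) on the log2 scale in R860Q R161, and by 1.75 and 1.56 in EGFP R163. Without R860Q R161 the log2 fold changes of 0.95 and 0.96 between groups became -0.30 and -0.27.

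In the gene order of RefSeq's assembly GRCz12tu, which is not the build of the counts (danRer10), rplp2 and rps26l lie next to each other, with no other measured gene between them. All 10 measured genes after them were highest in R860Q R161, and all 10 had R860Q R161 and EGFP R163 as their 2 highest tumours, an arrangement found in 2.26% of all genes tested (343 genes). The median log2 deviation of these 10 genes was 2.80 in R860Q R161 and 1.55 in EGFP R163, and in the other 7 tumours it lay between -0.62 and 0.02. Among the 20 genes after them, all 20 had the same 2 highest tumours and 18 were highest in R860Q R161.

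On the other side the tumours parted. The 10 measured genes before rplp2 had a median deviation of 1.62 in EGFP R163 but of -0.25 in R860Q R161, and 7 of them were highest in EGFP R163 while only the nearest 2, slc25a22 and tspan2a, were highest in R860Q R161. These neighbours were looked up after the values of rplp2 and rps26l had been seen.

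**Figure D4:**
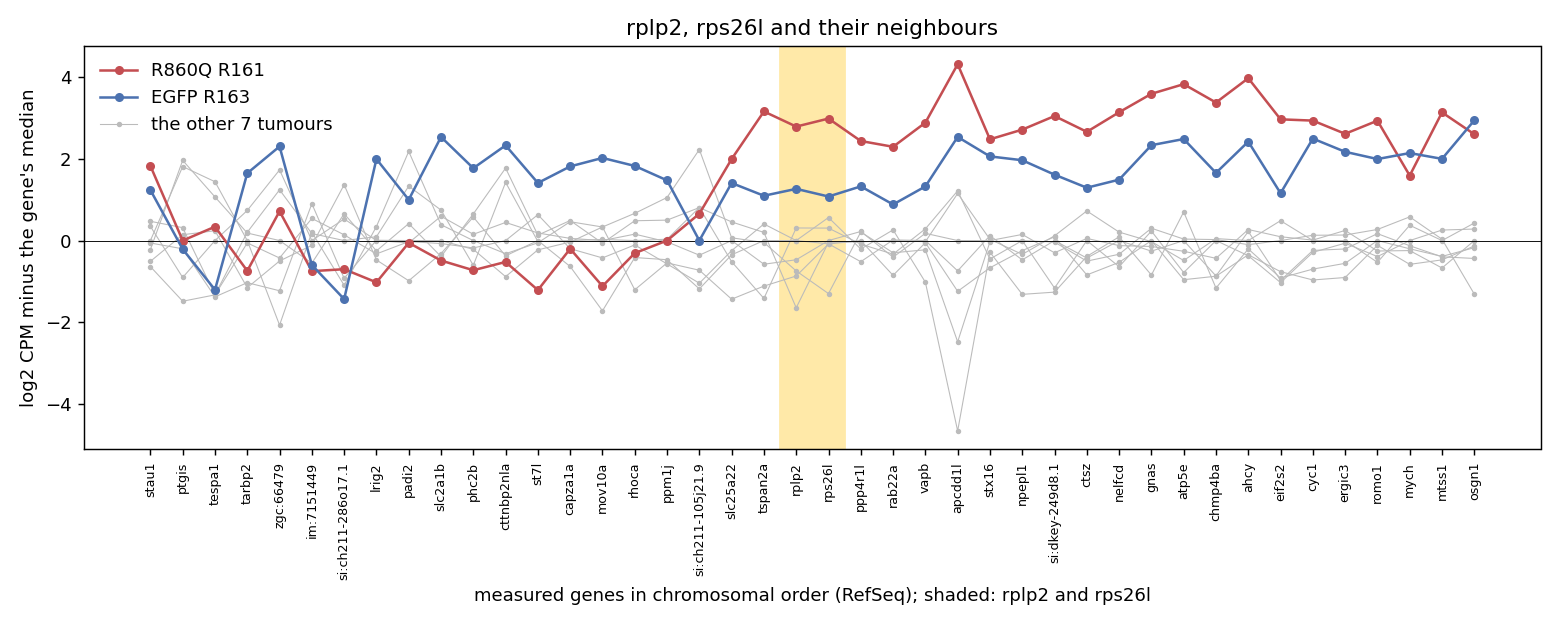
Log2 CPM minus the gene's median over the 9 tumours for rplp2 and rps26l (shaded) and the 20 measured genes on each side, in RefSeq order. R860Q R161 (red) is raised from slc25a22 onward (median 2.80 over the 10 genes after rps26l) and EGFP R163 (blue) on both sides (1.62 over the 10 before, 1.55 over the 10 after), while the other 7 tumours (grey) vary around 0.

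The other ribosomal protein genes were then set beside their neighbours. Of the 78 tested genes, 73 had 20 measured neighbours that are not in the set, 10 on each side, and rplp2 and rps26l were the only 2 with a neighbour median beyond 1 on the log2 scale in any tumour. A neighbour median beyond 0.5 occurred in 46 pairs of gene and tumour, over 33 genes. In 43 of these (93.5%) the ribosomal protein gene departed from the set in the same direction, and in 37 of 40 (92.5%) once rplp2 and rps26l were left out. Where the neighbour median was within 0.5, the direction was the same in 362 of 611 (59.2%), and over all pairs in 405 of 657 (61.6%). These last counts include pairs with a neighbour median of exactly 0, which has no direction, so they are no like baseline for the 93.5%. Agreement of genes outside the set with their neighbours was not counted, so the 93.5% is not shown to be particular to ribosomal protein genes. Counted from the ribosomal protein genes' own departures, those beyond 1 shared the direction of their neighbours in 11 of 17 pairs (64.7%), and in 5 of 10 without rplp2 and rps26l. Genes near each other share neighbours, so these pairs are not independent, and the 0.5 was chosen after the values were seen.

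R860Q R159 gave several of the pairs with a neighbour median beyond 0.5. The neighbours of rpl9, rps3a and rps6 had medians of -0.90, -0.86 and -0.72 there, and the genes themselves stood -1.04, -1.002 and -0.94 from the set's median. Around rps10 and rps3 the neighbour medians in the same tumour were 0.78 and 0.72, with 0.54 and 0.61 for the genes. In EGFP R163, rpl5b was raised by 0.93 where its neighbours were at 0.66.

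Other departures did not go with neighbours beyond 0.5, or had too few measured neighbours to tell (rps29 and rps19bp1). EGFP R164 was low for rps29 (-1.79), a zinc-binding protein of the small subunit, and for rpl3 (-1.17, neighbours 0.19), and EGFP R163 was high for rps29 (1.44). In EGFP R162, the tumour where the set was highest, rpl22l1 stood further up (1.52, neighbours -0.24), and rps19bp1 (-1.63), rpl4 (-1.30, neighbours 0.18) and rpl6 (-1.20, neighbours 0.07) stood below the set. In CPM, rps29 stood at 86.5, 60.1, 111, 145 and 94.0 in R860Q R157 to R161 and at 152, 183, 21.2 and 73.2 in EGFP R162 to R165.

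Paralog usage was measured as the share of the second copy in the reads of both, in 6 pairs with both rows present. It did not differ between groups beyond the spread in any pair (exact two-sided permutation over 126 splits of the tumours, 6 tests, all with a Benjamini-Hochberg adjusted p of 0.738). Near-identical copies can share reads, and the sources used here do not give the rule by which such reads were assigned, so the level of each share is uncertain.

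The genes rpl5a and rpl5b code for the protein that brings the 5S RNA to the large subunit. The share of rpl5b was 45.1%, 47.0%, 44.6%, 43.2% and 39.0% in R860Q R157 to R161 and 27.5%, 69.1%, 50.6% and 52.1% in EGFP R162 to R165. The R860Q tumours were close together, EGFP R162 lay below all of them, and EGFP R163, R164 and R165 lay above all of them. The means were 43.8% ± 2.99 (SD, n = 5) and 49.8% ± 17.1 (SD, n = 4; exact permutation p = 0.508), and without EGFP R163 the difference turned to 0.34 percentage points. Without EGFP R162 it was -13.5 percentage points (exact permutation p = 0.0179, Benjamini-Hochberg adjusted p = 0.107). This p of 0.0179 is the smallest that an exact permutation of so few tumours can give. A single pair could therefore not have passed the adjustment over all pairs, so the adjusted p cannot decide the question here.

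In mammals RPL22 regulates the mRNA of its relative RPL22L1. Of the reads of rpl22 and rpl22l1, rpl22l1 took 13.7%, 16.4%, 4.88%, 13.6% and 8.22% in R860Q R157 to R161. In EGFP R162 to R165 it took 27.8%, 8.71%, 10.3% and 7.71%. EGFP R162 was far above the rest and R860Q R159 was the lowest. The means were 11.4% ± 4.69 (SD, n = 5) and 13.6% ± 9.49 (SD, n = 4; exact permutation p = 0.738), and without EGFP R162 the difference turned to 2.44 percentage points. In CPM, rpl22l1 stood at 97.7, 156.98, 43.3, 172 and 87.1 in the R860Q tumours and at 677, 42.4, 70.6 and 28.1 in the EGFP tumours.

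The P stalk copies rplp2 and rplp2l differed most in the tumours where rplp2 departed with its neighbours. The share of rplp2l was 54.8%, 59.9%, 47.6%, 47.3% and 13.6% in R860Q R157 to R161 and 71.6%, 18.6%, 65.5% and 44.4% in EGFP R162 to R165. R860Q R161 and EGFP R163 were the 2 lowest, and the means were 44.6% ± 18.1 (SD, n = 5) and 50.03% ± 23.95 (SD, n = 4; exact permutation p = 0.667). The difference turned to 2.37 percentage points without R860Q R161 and to 1.78 without EGFP R162. In CPM, rplp2l followed the block, at 189 to 260 in R860Q tumours and 582, 127, 140 and 110 in EGFP R162 to R165.

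The mirror image appeared for rps26 and rps26l. The share of rps26l was 56.3%, 36.8%, 48.6%, 36.3% and 87.4% in R860Q R157 to R161 and 27.9%, 80.6%, 66.0% and 61.1% in EGFP R162 to R165. R860Q R161 and EGFP R163 were the 2 highest and EGFP R162 the lowest. The means were 53.1% ± 20.9 (SD, n = 5) and 58.9% ± 22.3 (SD, n = 4; exact permutation p = 0.675), and without EGFP R163 the difference turned to 1.46 percentage points.

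For the remaining 2 pairs the group means were also close. The share of rps27.2 in rps27.1 and rps27.2, zinc-binding proteins of the small subunit, was 31.4%, 25.7%, 25.4%, 23.1% and 40.7% in R860Q R157 to R161 and 21.1%, 35.8%, 36.7% and 33.5% in EGFP R162 to R165, with means of 29.3% ± 7.09 (SD, n = 5) and 31.8% ± 7.23 (SD, n = 4; exact permutation p = 0.579). The groups overlapped. Nearly all reads of rps8a and rps8b were on rps8a in every tumour, with 0.0427% ± 0.0384 (SD, n = 5) and 0.0243% ± 0.0125 (SD, n = 4) on rps8b (exact permutation p = 0.397).

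**Figure D5:**
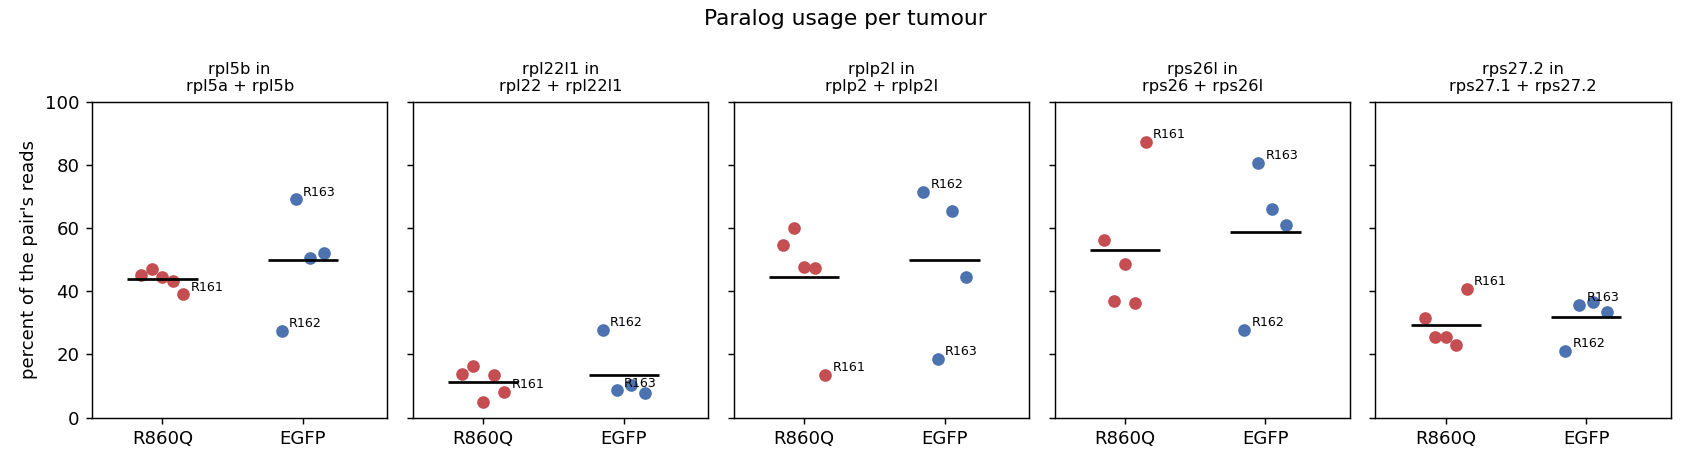
Share of the second copy in the reads of a pair (percent) in each of the 5 R860Q and 4 EGFP tumours, with lines at the group means, for 5 of the 6 pairs measured (rps8b, at under 0.1%, is not drawn). R860Q R161 and EGFP R163 are the 2 lowest tumours for rplp2l (13.6% and 18.6%) and the 2 highest for rps26l (87.4% and 80.6%).

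A further pair reaches outside the rule and was added after the data were seen, with no test. Of the reads of faua and faub, which code for a ubiquitin-like protein fused to a small subunit protein, faua took 96.8% to 99.0%.

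The neighbouring pathways were taken from lists, each counted by side. Translation factors and other genes known or thought to carry a 5′ TOP tract (37 tested) had 23 with a positive and 14 with a negative log2 fold change (47.2% of all genes tested were positive), 0 called (0% of all genes tested) and a median of 0.25. Their summed CPM was 18305 to 20435 in R860Q tumours, with 44675 in EGFP R162 and 9368 in EGFP R165, the same ends as the ribosomal protein genes. Without EGFP R162, 33 were positive (49.7% of all genes tested) and the median was 0.54. The same shares over all genes apply to the lists that follow. The smallest p-values belonged to the histone chaperone nap1l1 (0.80 ± 0.34 SE) and the initiation factor subunit eif3hb (0.75 ± 0.32), each at an edgeR adjusted p of 0.795, and on the lower side to the elongation factor eef2a.1 (-0.51 ± 0.35) and the TOP gene tpt1 (-0.85 ± 0.72).

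Of 84 tested ribosome biogenesis genes, which process ribosomal RNA and assemble the subunits in the nucleolus, 63 had a positive and 21 a negative log2 fold change, with 0 called and a median of 0.17. Without EGFP R162 70 were positive and the median was 0.24, so this list moved less with that tumour. The lowest p-values belonged to rrp1 (0.94 ± 0.37 SE) and heatr1, which acts in early processing (0.67 ± 0.26), each at an edgeR adjusted p of 0.759, and on the lower side to rpl7l1 (-0.67 ± 0.41) and rpf1 (-0.30 ± 0.31).

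For RNA polymerase I, which transcribes the ribosomal RNA genes, 7 of 12 were positive, 0 were called and the median was 0.02, or 12 and 0.21 without EGFP R162. The factor ubtf stood at 0.63 ± 0.33 (SE) and polr1e at -0.25 ± 0.38. Of 23 growth regulators, 12 were positive, 0 were called and the median was 0.02, or 15 and 0.06 without EGFP R162. Here mdm2, the p53 antagonist, stood at 0.79 ± 0.50 (SE) and mycb, a zebrafish Myc gene, at -0.62 ± 0.31. Of 73 mitochondrial ribosomal protein genes, 26 were positive, 0 were called and the median was -0.09, or 61 and 0.28 without EGFP R162, with mrpl43 at 0.52 ± 0.31 (SE) and mrpl47 at -1.46 ± 0.71.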

How the data were processed

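Total RNA of each tumour was depleted of ribosomal RNA and made into randomly primed libraries (15 min of fragmentation, 12 PCR cycles), read as 100-base pairs, per the labels. The authors deposited raw counts per gene symbol, and the submitters' processing notes name Bowtie, HTSeq and danRer10 (GRCz10). Versions, the strand setting and the treatment of reads shared by near-identical copies are not given in the sources used here. Therefore overlapping and near-identical genes may not be separated. No length table was used, so levels were not compared between genes, and the planned level per coding length was not computed.

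Counts were scaled by TMM and compared with edgeR 4.0.16 (R 4.3.3; filterByExpr with a minimum count of 10 and a minimum total of 15; robust quasi-likelihood test; Benjamini-Hochberg at 0.05 over 15169 genes; group as the only term), and again with the reads of the set as library size. The common biological coefficient of variation was 0.523. For log2 CPM the prior count was 2. The floor set by a count of 0 is 3 counts, 0.164 to 0.734 CPM in a tumour, for counting error only, as reads had no molecular identifiers. No 2 tumours agreed within sampling noise (chi-square per degree of freedom at least 42.9). Alternatives were DESeq2 1.42.0, limma 3.58.1 voom with sample weights, other scalings and filters, and leaving out each tumour. The edgeR fit was tested on simulated data.

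The members and lists were chosen with earlier results of these data known. Named genes were the 4 with the smallest p on each side, the 4 with the largest and the 4 with the smallest SD, all paralog pairs, and members that failed the filter or are not ribosomal proteins by name. In pathway lists, up to 2 genes a side were taken. The part of this rule that needed gene lengths was dropped, and some genes are not reported here. The genes rplp0, rps20, rpl11, rps29 and others that depart from the set were chosen after their values were seen. Neighbours came from RefSeq's table for GRCz12tu, in which 13006 of the genes tested were placed, and no coordinates are given.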

Additional observations from a re-analysis of the deposited data

Results flagged for a closer look

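In 54 sets of 4 or 5 tumours, 16 had a single tumour far from the rest of its group, where chance gives about 1 in 20 for independent sets. These sets are not independent: their genes were partly named for a large SD or a small p, they share tumours, and they move together. EGFP R162 was the far tumour in 11 of them. Its values were 677 CPM for rpl22l1 (other EGFP tumours 28.1 to 70.6), 5346 CPM for rpl5a (548 to 889), 582 CPM for rplp2l (110.3 to 139.8), 19.8 CPM for rps21 (1.91 to 3.06), 2466 CPM for rps26 (167 to 328) and 6753 CPM for rps27.1 (616 to 949). It also stood at 1807 CPM for rps27.2 (311 to 549), 9638 CPM for rps3a (913 to 2184), 3376 CPM for rps7 (681 to 1067) and 4024 CPM for rps8a (717 to 1080), and had 27.8% for rpl22l1 in the reads of rpl22 and rpl22l1 (7.71% to 10.3%).

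R860Q R161 stood at 1601 CPM for rplp2 (other R860Q tumours 126 to 286) and 5122 CPM for rps26l (609 to 798), and had 13.6% for rplp2l in the reads of its pair (47.3% to 59.9%). R860Q R159 had the lowest share of ribosomal protein reads of its group, 7.84% (9.40% to 9.86%), and the highest CPM of rps8a, 2180 (1708 to 1821).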

How the results depend on the processing

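No paired analysis was possible because no replicate number occurs in both groups. The count of 0 called genes was the same under every alternative run, on both scales, though DESeq2 gave some members no adjusted p. The log2 ratio of mean shares (0.105) was positive under each alternative except some that leave out a tumour (-0.11 to 0.54). Taken from medians over genes of log2 CPM in place of summed reads, with all tumours kept, it was 0.42. The median log2 fold change (-0.02) was 0.03 without a filter and lay between -0.30 and 0.80 when single tumours were left out, the latter without EGFP R162. The log2 ratio of the subunit ratios (-0.02) lay between -0.06 and 0.02 then, and was -0.16 from medians over genes in place of summed reads. No alternative added the ribosomal protein rows outside the rule to the subunit ratio. Differences in paralog share (percentage points, R860Q minus EGFP) ran, with single tumours left out, from -13.5 to 0.34 for rpl5b, from -4.25 to 2.44 for rpl22l1, from -15.9 to 2.37 for rplp2l, from -16.1 to 1.46 for rps26l, from -6.06 to -0.87 for rps27.2 and from 0.00567 to 0.0280 for rps8b. For rplp2l the sign turned without R860Q R161 (2.37) and without EGFP R162 (1.78), for rpl22l1 without EGFP R162, and for rpl5b and rps26l without EGFP R163. An alternative chosen after seeing the data, without R860Q R161 and EGFP R163 together, gave 1.53 for rpl5b. The causes were not tested. Alternatives per coding length were not run. With a biological coefficient of variation of 0.523 and 9 tumours, differences of single genes near their SE could not be detected here.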
